A study of Anopheles coluzzii and Anopheles merus with 32 samples.

Results

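The species by water interaction at 18 h asks of each gene whether saltwater moved its mRNA differently in young larvae of Anopheles merus than in young larvae of Anopheles coluzzii. It is the change under saltwater in An. merus minus the change under saltwater in An. coluzzii, so a positive value means a more positive change in An. merus. The contrast used 16 of the 32 libraries of the series, and it was tested for 10505 of the 11025 listed genes. The series title sets related malaria mosquitoes against each other as euryhaline and stenohaline, that is, tolerant of a wide or a narrow range of salinity. Rearing took place in freshwater (FW) for every group, and larvae were then held for 6 h in saltwater (SW) or in FW, starting 18 h after hatching. The 4 groups were An. merus in SW, An. merus in FW, An. coluzzii in SW and An. coluzzii in FW, with 4 libraries each. Each library came from a pool of 35 to 50 whole larvae. The labels give no strain, salinity or sex, and do not state that the pools of a group were separate cultures. The p-values therefore reflect how far these pools differed from each other, which may be technical in part.

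Mosquito larvae regulate the salt content of their haemolymph with the Malpighian tubules, which secrete primary urine, the rectum, which modifies it, and the anal papillae, which take up ions from dilute water. Larvae of most mosquito species live in dilute water and tolerate only weak salinity, whereas larvae of some saline-tolerant species keep the haemolymph below the salinity of the water outside. In RNA from whole larvae these organs are mixed with all other tissues, and a change in the RNA per cell cannot be told apart from a change in the share of a cell type. The table lists genes by AGAP identifier without a name, and none of the identifiers was found in the name table used here. Genes are therefore given by identifier, the labelled tissue could not be checked against markers, and neither their function nor their sequence is given.

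Read totals were 6011057 to 16633623 in An. merus SW, 5729261 to 8622683 in An. merus FW, 3769859 to 7588059 in An. coluzzii SW and 5006216 to 11873495 in An. coluzzii FW. Values are CPM (reads relative to the size of the library), which the authors scaled between libraries by TMM factors, which were 0.974 to 1.05 in An. merus SW, 1.15 to 1.22 in An. merus FW, 1.25 to 1.29 in An. coluzzii SW and 1.25 to 1.36 in An. coluzzii FW. The factors of An. merus SW were thus below those of the other groups. The libraries of An. coluzzii differed more among themselves than those of An. merus. The SD within a group, pooled over genes on the log2(CPM + 1) scale, was 0.225 in An. merus SW, 0.255 in An. merus FW, 0.391 in An. coluzzii SW and 0.34 in An. coluzzii FW. In An. coluzzii FW, replicates 1 and 2 lay closer to each other (SD of their log2 difference over genes, 0.346) than either did to replicates 3 and 4 (0.485 to 0.56). Pairs of An. coluzzii SW libraries differed by 0.413 to 0.698. The counts for An. coluzzii and for the interaction are given below also without FW replicates 1 and 2.

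At 18 h the response to saltwater differed between the species for 1867 genes, or 17.8% of those tested (limma, Benjamini-Hochberg adjusted p below 0.05). The interaction was positive for 1030 genes (9.8% of those tested) and negative for 837 (7.97%). It reached at least 1 on the log2 scale for 552 of them, 366 positive and 186 negative, and at least 2 for 48 positive and 9 negative. Of the 1867 genes, 1286 (748 positive and 538 negative) also passed in each of the 16 fits that left out 1 library. Without An. coluzzii FW replicates 1 and 2, 1886 genes were called, of which 1475 were among the 1867. Directions are taken relative to most genes, as set by the scaling of the authors. When all libraries were brought to 1 common sum, the median of all genes lay at -0.16 in place of -0.01 on the log2 scale, and the calls were 684 positive and 1448 negative, 32.1% positive in place of 55.2%. When each group was reduced to the mean of its replicates 1 and 2 and the mean of its replicates 3 and 4, 396 genes were called, 281 positive and 115 negative. Replicate numbers here follow the order of the samples and do not come from the labels, and this fit has fewer units per group.

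The called genes were mostly those that moved in An. merus and moved less in An. coluzzii. For 1799 of them, or 96.4%, An. merus had the larger absolute change, against 73.9% of all genes tested. In 1257 both species had the same sign of change and the larger change was that of An. merus. In 604, or 32.4%, the signs were opposite, against 27.8% of all genes tested, and in 542 of these the An. merus change was again the larger. Without An. coluzzii FW replicate 4 the opposite share was 40%, its highest over the fits that left out 1 library. Without An. coluzzii SW replicate 1 the share with the larger change in An. merus was 92.3%, its lowest over these fits. Among the positive genes the median change was 0.98 in An. merus and 0.15 in An. coluzzii on the log2 scale. Among the negative genes it was -0.88 in An. merus and -0.07 in An. coluzzii, while over all genes it was -0.02 in An. merus and 0 in An. coluzzii. These shares and medians describe genes that were chosen by the same contrast, so they give it no further support. The same holds for the passes in An. merus that follow, as those libraries entered the contrast. Fitted on the 8 libraries of each species alone, the change passed in An. merus for 996 of the 1030 positive and 815 of the 837 negative genes, where 56.9% of all genes tested passed. In An. coluzzii 6 genes passed in such a fit (0.0571% of those tested, with 1745 at an unadjusted p below 0.05), 2 higher in SW (0.019%) and 4 lower (0.0381%), and 5 of these 6 were among the 1867. None passed without FW replicate 1, 2 or 3, without SW replicate 2, 3 or 4, or without both FW replicates 1 and 2, whereas 3 passed without FW replicate 4 and 41 without SW replicate 1. The number also depends on the method, with 9 genes by edgeR, 239 by DESeq2 and 867 when the spread was taken from all 32 libraries, so a small number does not show that An. coluzzii left these genes unmoved.

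**Figure D1:**
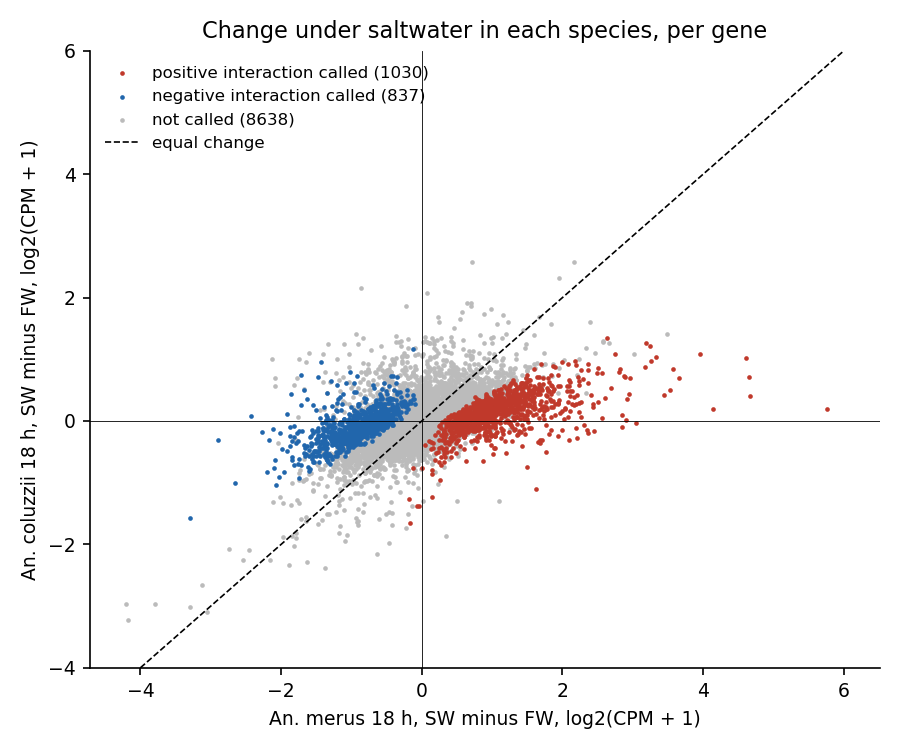
Change under saltwater at 18 h (SW minus FW, log2(CPM + 1)) in An. merus on the horizontal axis and in An. coluzzii on the vertical axis, with 1 point per gene, coloured by the interaction. The 1030 positive genes (red) lie below the line of equal change and the 837 negative genes (blue) above it, and in both sets the spread is wider along the An. merus axis than along the An. coluzzii axis.

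The group that set a called gene apart was usually An. merus in saltwater. In 786 of the 1030 positive genes (76.3%) all 4 libraries of An. merus SW lay above the other 12, against 14.7% of all genes tested. In 550 of the 837 negative genes (65.7%) they all lay below the other 12, against 12.1% of all genes tested. The next most frequent arrangement set An. merus FW apart, below the other 12 libraries in 168 positive genes (16.3%, against 3.88% of all genes tested) and above them in 167 negative genes (20%, against 5.09%). The groups of An. coluzzii stood apart in fewer called genes. An. coluzzii SW lay above the others in 19 negative genes (2.27%) and 5 positive genes (0.485%), against 0.752% of all genes tested, and below them in 12 positive (1.17%) and 2 negative genes (0.239%), against 0.59%. An. coluzzii FW lay below the others in 37 positive genes (3.59%) and 1 negative gene (0.119%), against 0.961% of all genes tested, and above them in 30 negative (3.58%) and 18 positive genes (1.75%), against 1.98%. These counts describe genes that were called from the same libraries.

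**Figure D2:**
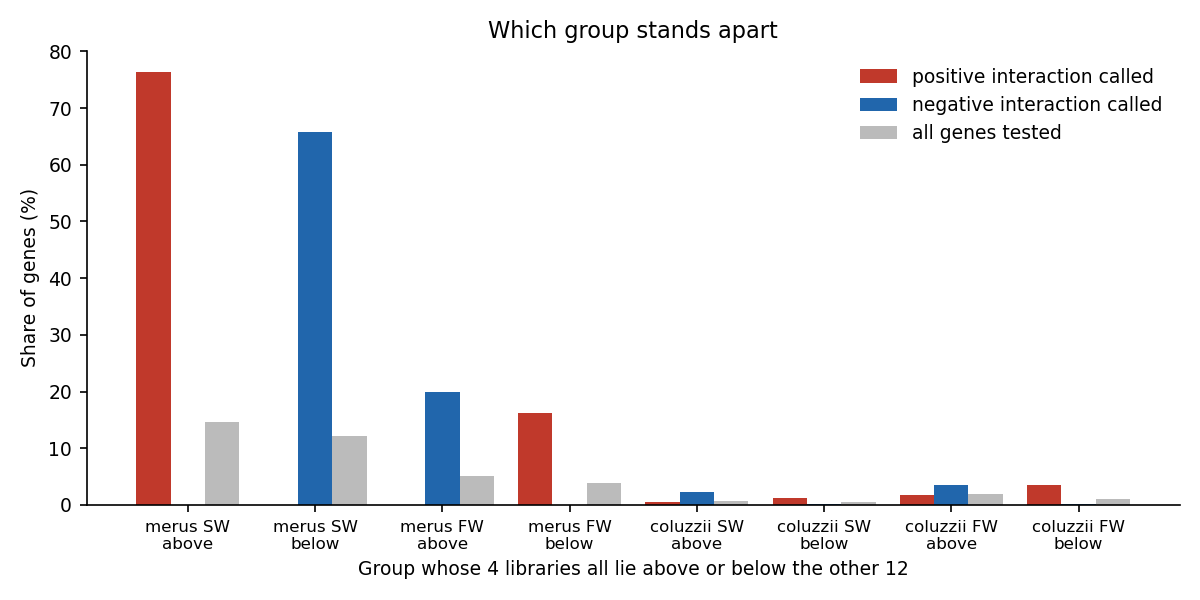
Share of genes (percent) in which all 4 libraries of the named group lie above or below the other 12 libraries at 18 h, for genes with a positive interaction (red), with a negative interaction (blue) and for all genes tested (grey). The bars of An. merus SW reach 76.3% above and 65.7% below, against 14.7% and 12.1% of all genes tested.

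The species lay further apart in SW than in FW for 839 (81.5%) of the positive and 639 (76.3%) of the negative genes, against 62.7% of all genes tested. For the positive genes the median difference, An. merus minus An. coluzzii, was 0.86 in SW and -0.01 in FW on the log2 scale. For the negative genes it was -0.77 in SW and 0.03 in FW, and over all genes it was 0.03 in both waters. The libraries of the species overlapped in SW for 169 (16.4%) and in FW for 592 (57.5%) of the 1030 positive genes. Among the 837 negative genes they overlapped in SW for 219 (26.2%) and in FW for 427 (51%). Over all genes tested the species overlapped in SW for 49.3% and in FW for 58.1%, so the share of the positive genes in FW was close to that of all genes. For 191 positive and 198 negative genes the species lay closer in SW than in FW. The difference in SW minus that in FW is the interaction itself, so on genes called by it these values are a description and give it no further support.

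The share of called genes varied with abundance, which in CPM also grows with transcript length. It was 5.07% for genes with a mean under 1 CPM in the 16 libraries and 13.3% for genes with a mean of 1 to 10 CPM, 20.4% at 10 to 100, 20.6% at 100 to 1000 and 9.02% at 1000 and over. Positive genes made up 41% of the calls at 1 to 10 CPM, 53.9% at 10 to 100 and 82% at 100 to 1000 CPM, and all 12 called genes at 1000 CPM and over were positive, all under the authors' scaling. In 41 called genes (2.2%) both An. coluzzii groups averaged under 1 CPM, against 2.87% of all genes tested. Both An. merus groups did so in 14 called genes (0.75%), against 3.78% of all genes tested.

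Genes are described below by a rule that asked for a call in all 16 fits with 1 library left out and for at least 10 CPM in the highest group. By this rule the largest positive interaction was that of AGAP009460. It stood at 99.6, 109, 127 and 133 CPM in the An. merus SW libraries, against 1.19, 1.29, 1.03 and 1.15 CPM in An. merus FW. Values in An. coluzzii SW were 1.36, 0.592, 1.01 and 1.49 CPM, whereas those in An. coluzzii FW were 1.03, 0.681, 0.72 and 0.874 CPM. The 4 An. merus SW libraries were far above the other 12, which all lay between 0.592 and 1.49 CPM. The mean in An. merus was 101 times higher in SW than in FW, and the interaction was 5.57 ± 0.21 (log2, SE, limma adjusted p = 3.1e-11).

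AGAP004581 came next. Its values were 76.7, 52.9, 64.4 and 56.8 CPM in An. merus SW, against 1.69, 0.772, 1.32 and 2.41 CPM in An. merus FW. An. coluzzii SW libraries stood at 1.05, 0.473, 3.58 and 1.49 CPM, against 0.737, 0.34, 1.51 and 0.874 CPM in An. coluzzii FW libraries. Again An. merus SW stood alone, and the An. coluzzii groups overlapped. The interaction was 4.26 ± 0.41 (limma adjusted p = 4.6e-06), made of a change of 4.67 ± 0.19 in An. merus and of 0.41 ± 0.33 in An. coluzzii (adjusted p = 0.52).

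The most negative interaction by the same rule was that of AGAP013737, at 0.954, 0.382, 1.21 and 1.13 CPM in An. merus SW, against 18.8, 14, 6.03 and 18.2 CPM in An. merus FW. In An. coluzzii the SW libraries had 1.89, 2.72, 1.79 and 1.7 CPM and the FW libraries 0.737, 1.81, 3.89 and 7.06 CPM. An. merus FW was above all other groups except for 1 An. coluzzii FW library, which was higher than the lowest An. merus FW library. The interaction was -2.59 ± 0.57 (limma adjusted p = 0.0059). On the means of pairs of replicates it did not pass (adjusted p = 0.0947), and at 66 h it was -0.53 ± 0.35 (adjusted p = 0.25).

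AGAP007732 followed at -2.45 ± 0.67 (limma adjusted p = 0.023). It stood at 49.6, 33.7, 38.9 and 28.9 CPM in An. merus SW, against 144, 118, 184 and 74 CPM in An. merus FW. For An. coluzzii, SW gave 168, 144, 61 and 43.2 CPM, against FW with 31.1, 34.5, 94 and 78.5 CPM. The An. merus groups did not overlap, while the An. coluzzii groups did, and FW replicates 1 and 2 were the lowest of that species. Without these replicates the interaction was -1.77 (adjusted p = 0.0889), and on the means of pairs of replicates its adjusted p was 0.221.

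Among genes that averaged at least 500 CPM in their highest group, AGAP010848 had the largest positive interaction. It stood at 491, 709, 605 and 978 CPM in An. merus SW, against 77, 82.5, 90.6 and 113 CPM in An. merus FW. The An. coluzzii SW libraries held 251, 162, 262 and 139 CPM, and the An. coluzzii FW libraries 118, 114, 122 and 121 CPM. The SW libraries lay above the FW libraries in both species, and the means were 7.65 times higher in An. merus and 1.71 times higher in An. coluzzii. The An. coluzzii change of 0.72 ± 0.2 did not pass on its own (adjusted p = 0.18), and the interaction was 2.17 ± 0.3 (limma adjusted p = 0.00014).

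AGAP009634 had a similar arrangement, at 549, 613, 507 and 681 CPM in An. merus SW, against 81.4, 65.9, 76.2 and 109.8 CPM in An. merus FW. Values in An. coluzzii SW were 119, 114, 159 and 64.3 CPM, whereas those in An. coluzzii FW were 66.5, 55.1, 60.6 and 57.2 CPM. In An. coluzzii 3 of the 4 SW libraries were above all FW libraries, and the fourth overlapped them. The interaction was 1.97 ± 0.3 (limma adjusted p = 0.00031).

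Of the abundant genes with a negative interaction, AGAP008460 stood at 115, 123, 135 and 146 CPM in An. merus SW, against 474, 559, 432 and 513 CPM in An. merus FW. An. coluzzii SW libraries stood at 278, 415, 377 and 418 CPM, against 600.1, 674, 379 and 448 CPM in An. coluzzii FW libraries. An. merus SW was below all other libraries, and the An. coluzzii groups overlapped. The interaction was -1.44 ± 0.23 (limma adjusted p = 0.00051).

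AGAP000437 stood at 206, 244, 203 and 245 CPM in An. merus SW, against 546, 619.5, 551 and 788 CPM in An. merus FW. In An. coluzzii the SW libraries had 891, 803, 692 and 618 CPM and the FW libraries 882, 955, 719 and 1031 CPM. An. merus SW was below the other 12 libraries, and the interaction was -1.21 ± 0.2 (limma adjusted p = 0.00054). These 4 abundant genes kept their call under all 29 alternatives. The 29 include the fits that left out each library in turn, in which the naming rule had asked for a call, so those fits give no further support.

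**Figure D3:**
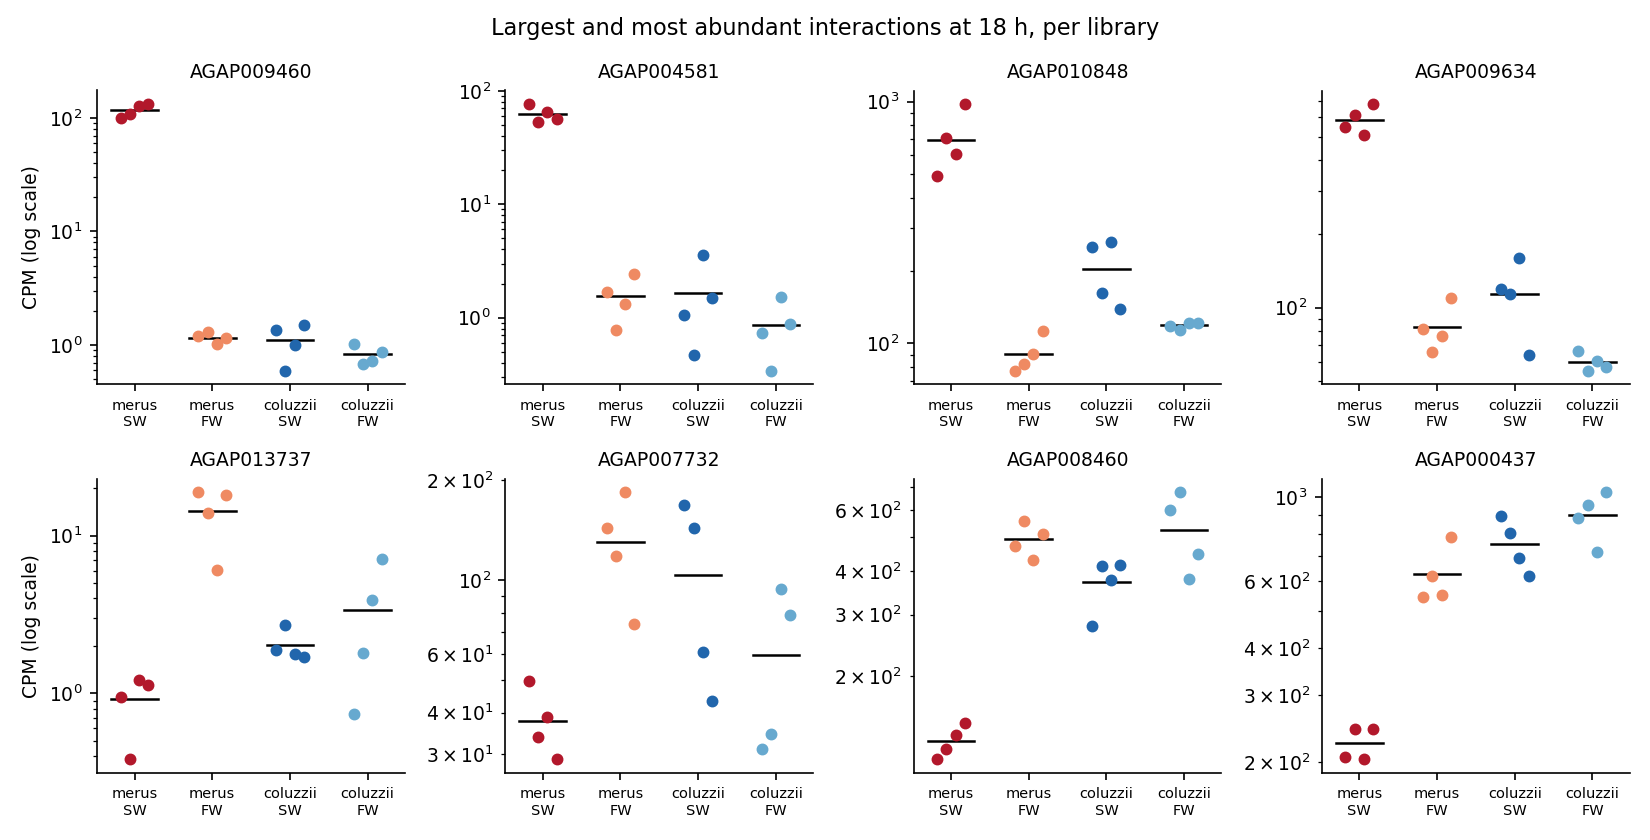
CPM on a log axis for 8 genes in the libraries of An. merus SW, An. merus FW, An. coluzzii SW and An. coluzzii FW at 18 h, with 1 point per library and a line at the group mean. The top row holds positive and the bottom row negative interactions, and in 6 of the 8 panels the 4 An. merus SW libraries lie beyond all other libraries. The exceptions are AGAP013737, where an An. coluzzii FW library reaches into their range, and AGAP007732, where An. coluzzii libraries of both waters do.

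Opposite changes without overlap of the libraries in either species were rare. In 33 of the 10505 genes tested the SW and FW libraries did not overlap in either species and the signs of change were opposite. The interaction was called for all 33, but such an arrangement itself makes for a large interaction, so these calls give no further support. How many such genes would arise without a change in An. coluzzii was not tested. In single species the libraries did not overlap for 50.3% of all genes tested in An. merus and 9.06% in An. coluzzii. By the naming rule AGAP002853 had the largest such interaction, at 37.2, 29.7, 35.3 and 13.8 CPM in An. merus SW, against 5.66, 9.27, 7.94 and 10.3 CPM in An. merus FW. For An. coluzzii, SW gave 0.105, 0.71, 0.224 and 0.426 CPM, against FW with 2.21, 2.16, 1.66 and 1.61 CPM. Saltwater libraries were thus higher in An. merus and lower in An. coluzzii, where the 4 SW libraries held 11 reads in all. The interaction was 2.73 ± 0.36 (limma adjusted p = 6.9e-05), and the An. coluzzii change of -1.1 ± 0.17 had an adjusted p of 0.069. At 66 h it stood at 32.4 ± 15.5 CPM in An. merus SW and 3.35 ± 1.6 CPM in An. merus FW, and at 0.584 ± 0.261 CPM in An. coluzzii SW and 0.533 ± 0.156 CPM in An. coluzzii FW (SD, n = 4). The interaction at 66 h was 2.79 ± 0.52 (adjusted p = 0.00094).

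AGAP010414 was the next of these genes. Its values were 29.3, 32.5, 28.3 and 32.2 CPM in An. merus SW, against 12.5, 7.08, 10.3 and 11.5 CPM in An. merus FW. The An. coluzzii SW libraries held 5.56, 6.16, 4.92 and 6.6 CPM, and the An. coluzzii FW libraries 8.11, 12, 9.14 and 12.9 CPM. The FW groups of the species overlapped, while in SW the species stood on either side of them. The interaction was 2.25 ± 0.23 (limma adjusted p = 7.6e-06), from a change of 1.5 ± 0.15 in An. merus (adjusted p = 4.3e-06) and of -0.75 ± 0.17 in An. coluzzii (adjusted p = 0.14). At 66 h it stood at 27.3 ± 4.55 CPM in An. merus SW and 21.1 ± 3.34 CPM in An. merus FW, and at 7.69 ± 0.664 CPM in An. coluzzii SW and 22.1 ± 6.72 CPM in An. coluzzii FW (SD, n = 4).

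In 68 called genes the larger absolute change was that of An. coluzzii. AGAP007830 stood at 2.54, 2.07, 2.25 and 2.75 CPM in An. merus SW, against 2.09, 1.8, 5 and 3.1 CPM in An. merus FW. Values in An. coluzzii SW were 7.87, 20.5, 19.9 and 16.8 CPM, whereas those in An. coluzzii FW were 47.3, 50.4, 42.1 and 62.8 CPM. The An. coluzzii groups did not overlap and lay above both An. merus groups, which overlapped. The interaction was 1.47 ± 0.37 (limma adjusted p = 0.011), and with all libraries thinned to the depth of the shallowest it was 0.92 (adjusted p = 0.0927). At 66 h the gene was more abundant in all groups, at 186 ± 25.4 CPM in An. merus SW, 172 ± 80.9 CPM in An. merus FW, 1555 ± 189 CPM in An. coluzzii SW and 1522 ± 334 CPM in An. coluzzii FW (SD, n = 4), and the interaction was 0.16 ± 0.34 (adjusted p = 0.76).

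AGAP010830 was almost without reads in An. merus, with 8 reads over the SW libraries and 2 over the FW libraries, so no fold is given there. At that level a decrease in An. merus could hardly show on the log2(CPM + 1) scale. An. coluzzii SW libraries stood at 10.5, 12.8, 5.82 and 7.66 CPM, against 21.8, 25, 22.5 and 19.4 CPM in An. coluzzii FW libraries. These An. coluzzii groups did not overlap. The interaction was 1.37 ± 0.26 (limma adjusted p = 0.0017), but on the recovered reads it did not pass by edgeR (2.57, adjusted p = 0.11) or DESeq2 (2.71, adjusted p = 0.0807). At 66 h the gene stood at 4.22 ± 1.18 CPM in An. merus SW and 1.09 ± 0.429 CPM in An. merus FW. In An. coluzzii it then stood at 22.6 ± 4.78 CPM in SW and 28.2 ± 13.7 CPM in FW (SD, n = 4). The interaction at 66 h was 1.51 ± 0.41 (limma adjusted p = 0.01).

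AGAP013031 had the largest negative interaction of this kind by the naming rule, at 3.82, 2.68, 2.14 and 2.42 CPM in An. merus SW, against 4.37, 2.57, 2.8 and 2.64 CPM in An. merus FW. In An. coluzzii the SW libraries had 9.13, 12.4, 11.9 and 21.9 CPM and the FW libraries 3.39, 5.22, 6.62 and 6.59 CPM. All An. coluzzii SW libraries were above all FW libraries, and the An. merus groups overlapped. The interaction was -1.29 ± 0.34 (limma adjusted p = 0.014), and without An. coluzzii FW replicates 1 and 2 it was -1.02 (adjusted p = 0.0563).

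**Figure D4:**
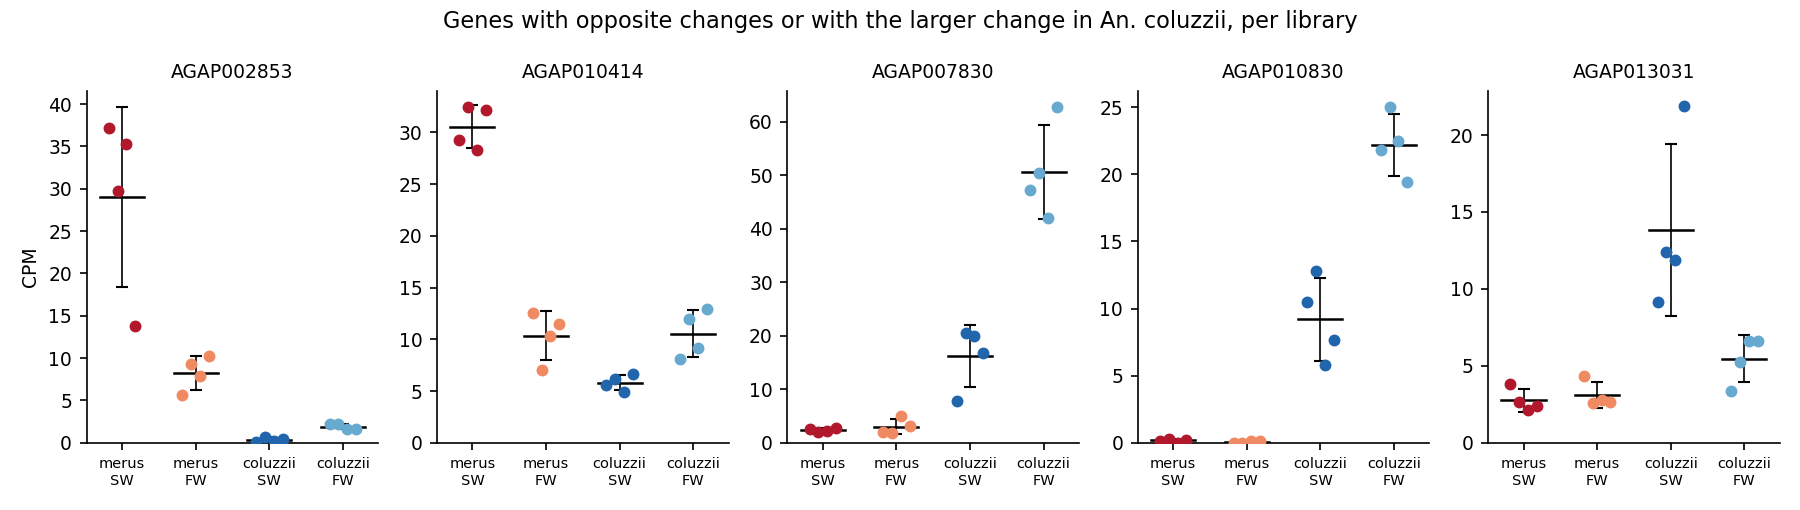
CPM from 0 for 5 genes in An. merus SW, An. merus FW, An. coluzzii SW and An. coluzzii FW at 18 h, with 1 point per library, a line at the group mean and a bar of 1 SD (n = 4). AGAP002853 and AGAP010414 are higher in SW in An. merus and lower in SW in An. coluzzii, and in the other 3 genes the An. coluzzii groups are separate while the An. merus groups overlap.

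Some called genes carried neighbouring identifiers. In 24 runs, 13 positive and 11 negative, at least 4 called genes of 1 direction followed each other with identifier numbers at most 3 apart, and the longest run held 8. Genes that were not called could lie between them. Of all genes tested, 9.8% were called positive and 7.97% negative, and how many runs these shares alone would give was not tested. The run with the largest median interaction went from AGAP009634 to AGAP009638, with 4 called genes of 5 tested, all 5 positive, and a median of 1.54. The run from AGAP001704 to AGAP001708 held 5 called genes of 5 tested, with a median interaction of 1.25 and a range of 0.54 to 3.07. The median change in that run was 1.45 in An. merus and 0.05 in An. coluzzii on the log2 scale. These runs are described without a test, and the numbering of identifiers was not checked against the genome. Reads shared between near-identical copies could not be examined.

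The same contrast was measured at 66 h after hatching in 16 other libraries, with none in common. There the interaction was called for 3365 genes, or 32% of those tested, 1552 positive (14.8%) and 1813 negative (17.3%). Of the 1030 positive genes at 18 h, 686 (66.6%) were called positive at 66 h, against that 14.8%, and 7 were called negative. Of the 837 negative genes, 505 (60.3%) were called negative at 66 h, against that 17.3%, and 7 positive. The 1191 genes called in the same direction at both ages made up 63.8% of the calls at 18 h and 35.4% of those at 66 h. The sign was the same for 94.1% of the positive and 94.1% of the negative genes, against 74.6% of all genes tested. Over the 10505 genes the interactions at 18 h and 66 h correlated with Pearson's r = 0.627 and Spearman's rho = 0.626, a value across genes, which are no independent replicates. Both ages share the authors' scaling and the alignment of each species' reads, whose part in this r was not tested.

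**Figure D5:**
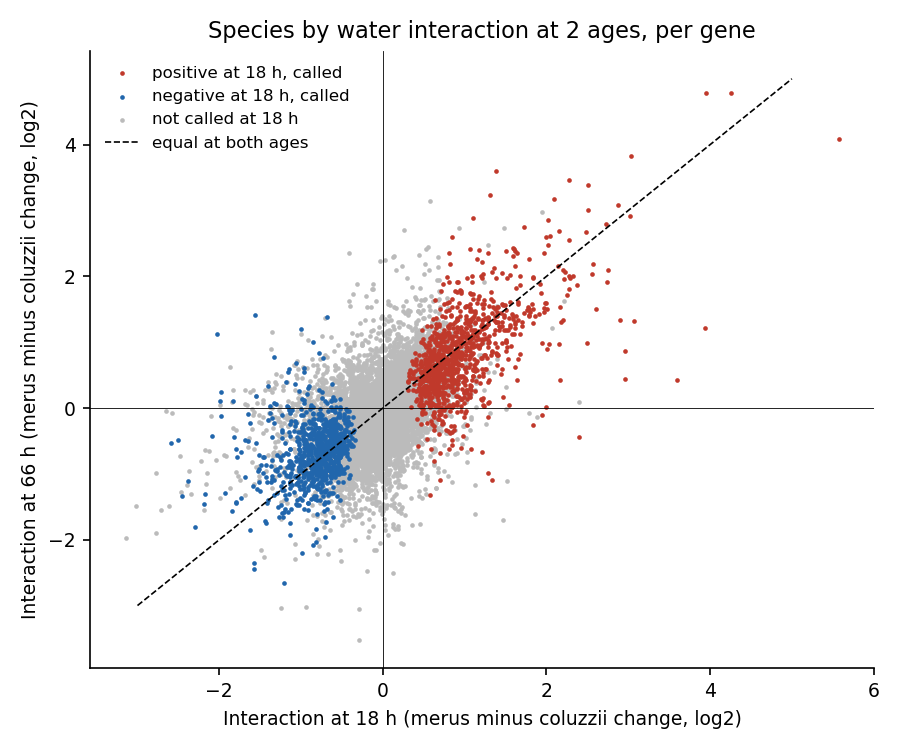
Species by water interaction (An. merus change minus An. coluzzii change, log2) at 18 h on the horizontal axis and at 66 h on the vertical axis, with 1 point per gene. Of the genes called positive at 18 h (red) and negative at 18 h (blue), 94.1% in each set lie on the same side of 0 at 66 h.

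Read the other way, genes chosen at 66 h alone were followed in the libraries at 18 h. Of the 1552 genes positive at 66 h, 44.7% were called at 18 h, against 17.8% of all genes tested. Their median difference from the mean of the An. merus FW libraries was 0.54, 0.69, 0.66 and 0.76 on the log2 scale in the An. merus SW libraries, against 0.04, -0.05, -0.02 and 0.03 in the FW libraries, each FW library being set against the other 3. In An. coluzzii the medians were 0.07, 0.12, 0.17 and 0.14 in SW, against -0.06, -0.03, 0.03 and 0.11 in FW, so the groups of An. coluzzii overlapped. Of the 1813 genes negative at 66 h, 28.2% were called at 18 h. Their medians were -0.39, -0.51, -0.48 and -0.64 in An. merus SW, against -0.02, -0.01, -0.02 and 0.05 in An. merus FW. In An. coluzzii they were -0.12, -0.09, -0.06 and -0.07 in SW, against -0.04, 0.05, -0.02 and 0.02 in FW, without overlap. Over all genes tested the medians of the 16 libraries lay between -0.03 and 0.06.

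Whether the interaction itself differed between the ages was tested in all 32 libraries, and 114 genes (1.09% of those tested) were called, 50 with a more positive interaction at 66 h (0.476%) and 64 with a more negative one (0.609%). Of the 1867 genes called at 18 h, 57 (3.05%) were among them. In 33 of these 57 the sign at 66 h was opposite, in 12 the interaction was smaller and in 12 it was larger. The difference between the ages contains the interaction at 18 h, by which the 1867 were called. Such a choice itself makes a called difference and a smaller or reversed value at 66 h more likely. The share of 3.05% and the split of the 57 are therefore a description only. Both the number and the balance of directions are sensitive to the method. The calls were 131 positive and 227 negative with array weights, 133 positive and 86 negative by DESeq2, 42 and 32 after quantile normalisation, 22 and 22 with thinned reads, 37 and 70 with all libraries at 1 common sum, and 3 and 1 on means of pairs of replicates. The number was 63 without An. merus 18 h FW replicate 2.

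AGAP009098 was among the 57. At 18 h it stood at 37.5, 38.8, 44.6 and 62 CPM in An. merus SW, against 0.596, 0.644, 1.32 and 0.805 CPM in An. merus FW. For An. coluzzii, SW gave 3.67, 1.54, 2.13 and 1.92 CPM, against FW with 0.737, 1.59, 1.08 and 0.605 CPM. Its interaction was 3.94 ± 0.3 at 18 h and 1.22 ± 0.35 at 66 h, and the difference was -2.73 ± 0.47 (limma adjusted p = 0.0028). At 66 h it stood at 74.2 ± 10.4 CPM in An. merus SW, 15.7 ± 2.22 CPM in An. merus FW, 20.2 ± 7.97 CPM in An. coluzzii SW and 9.83 ± 3.56 CPM in An. coluzzii FW (SD, n = 4). The mean FW levels of both species were above all their FW values at 18 h.

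AGAP010701 had a negative interaction at 18 h that was not called at 66 h. It stood at 11.1, 5.97, 9.07 and 7.6 CPM in An. merus SW, against 37.6, 35.4, 36.9 and 15.2 CPM in An. merus FW, and at 32.3, 28.2, 20.9 and 16 CPM in An. coluzzii SW, against 14.6, 15.9, 25.1 and 24.3 CPM in An. coluzzii FW. The An. merus groups did not overlap and the An. coluzzii groups did. The interaction was -1.98 ± 0.41 at 18 h and 0.24 ± 0.22 at 66 h (adjusted p = 0.42), and the difference was 2.22 ± 0.48 (limma adjusted p = 0.018). On the means of pairs of replicates the interaction at 18 h did not pass (adjusted p = 0.0582).

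AGAP005997 went the other way, with an interaction of -1.21 ± 0.22 at 18 h (limma adjusted p = 0.0012) that was larger in size at 66 h, by -1.45 ± 0.32 (adjusted p = 0.018). At 18 h it stood at 176, 218, 189 and 242 CPM in An. merus SW, against 604, 555, 538 and 631 CPM in An. merus FW. The An. coluzzii SW libraries held 282, 411, 441 and 419 CPM, and the An. coluzzii FW libraries 502, 591, 362 and 452 CPM, where the groups overlapped. At 66 h it stood at 217 ± 31 CPM in An. merus SW, 1455 ± 232 CPM in An. merus FW, 783 ± 116 CPM in An. coluzzii SW and 834 ± 163 CPM in An. coluzzii FW (SD, n = 4). The 2 leading genes kept a positive interaction at 66 h, with 4.09 ± 0.3 for AGAP009460 and 4.78 ± 0.4 for AGAP004581. For AGAP009460 the difference between the ages passed (-1.48 ± 0.37, adjusted p = 0.045), and for AGAP004581 it did not (0.52 ± 0.6, adjusted p = 0.76).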

How the data were processed

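Messenger RNA was measured in whole larvae as 32 libraries, of which 16 enter the interaction at 18 h. Per the labels' protocols, libraries were made from DNase-treated RNA with a TruSeq v2 kit and polyA selection. That kit does not mark strand, so a gene and a partner that overlaps it in antisense share their reads. The deposited table holds a signal per gene, named by the authors as CPM after TMM scaling (a trimmed mean of log ratios) and as filtered. The tools edgeR, HTSeq, TopHat2, Bowtie2 and Trimmomatic are listed, per the submitters' processing notes, without role or version. The filter, genome build and annotation are not given in the sources used here. Both species share 1 set of identifiers, and how readily the reads of each species aligned was not tested. All columns were used, each mapped to a sample by its barcode number, species letter, age and water.

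Within a tolerance of 0.01 reads, dividing each library by what 1 read is worth gave whole reads for 100% of entries, and TMM factors recomputed from these reads differed from the authors' by at most 4.4e-16. For 1 An. merus FW library at 18 h that worth is close to a round decimal, so that this check is weaker there. Pairs of libraries of a group at 18 h had a chi-square per degree of freedom of 5.36 to 34.6, above sampling noise. None was therefore taken as the same library sequenced again. This check cannot show whether libraries came from separate pools or cultures.

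On the log2(CPM + 1) scale, genes that averaged 1 CPM or more across the 32 libraries were tested with limma 3.58.1 (trend and robust options, R 4.3.3), two-sided, with Benjamini-Hochberg adjustment over all 10505 genes tested. Each comparison was fitted on its own libraries, with 12 residual degrees of freedom for the interaction, because groups differ in spread and 4 groups of equal size give the contrast its own variance. The difference between ages used all 32. Fold changes on this scale understate low genes. The design assumed CPM, and its test was kept for this signal. Alternatives used edgeR 4.0.16 and DESeq2 1.42.0 on the recovered reads, other scalings, filters, pseudocounts, weights and units, and left out each library in turn. The model was also tested on simulated counts that had the same spread setting in all groups. That test therefore does not cover the unequal spread of the groups seen here. There were no molecular identifiers, so reads may be copies of the same molecule. Figures were drawn with matplotlib 3.10.9.

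The comparison, the gene lists and the naming rule were chosen with earlier results of these data known. The naming rule took genes called in all 16 fits that left out 1 library, with at least 10 CPM in the highest group, by the size of the interaction: among all genes, among genes of at least 500 CPM, among those with opposite changes without overlap, and among those with the larger change in An. coluzzii. As identifiers carry no names, at most 2 positive and 2 negative genes are given per pattern. AGAP009098, AGAP010701 and AGAP005997 were picked among the named genes after their values were seen. None of the 28 gene lists, tissue markers included, matched, since 0 identifiers were found in the name table, so the labelled tissue could not be checked against markers.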

Additional observations from a re-analysis of the deposited data

Results flagged for a closer look

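The test of a different response in the species called 1867 genes at 18 h, and the test of a different interaction between the ages called 114. The named genes with a called interaction at 18 h were AGAP009460 at 5.57, AGAP004581 at 4.26, AGAP009098 at 3.94, AGAP002853 at 2.73, AGAP010414 at 2.25, AGAP010848 at 2.17, AGAP009634 at 1.97, AGAP007830 at 1.47 and AGAP010830 at 1.37 on the log2 scale. On the negative side they were AGAP013737 at -2.59, AGAP007732 at -2.45, AGAP010701 at -1.98, AGAP008460 at -1.44, AGAP013031 at -1.29 and both AGAP000437 and AGAP005997 at -1.21. The interaction at 66 h minus that at 18 h was called for AGAP009098 at -2.73, AGAP010701 at 2.22, AGAP009460 at -1.48 and AGAP005997 at -1.45.

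In 3 of 80 groups of 4 values, 1 library lay far from the others by Dixon's criterion, where chance gives about 1 in 20. AGAP013031 stood at 4.37 CPM in An. merus FW replicate 1, above the other 3. AGAP010701 stood at 15.2 CPM in An. merus FW replicate 4, below the other 3. Its interaction passed without that library too, but the naming rule had asked for this, so it gives no further support. For the genes negative at 66 h, the median of An. merus FW replicate 4 was 0.05, above the other 3.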

How the results depend on the processing

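The number of genes with a called interaction at 18 h was within 1.5 times of 1867 under all alternatives but 1, from 1355 (quantile normalisation) to 2260 (array weights). The exception was the fit on means of replicates 1 and 2 and of 3 and 4, with 396. Leaving out 1 library gave 1426 to 2020, and 53.7% to 58.3% of these calls were positive. The positive share was 32.1% after scaling all libraries to 1 common sum. The larger change was that of An. merus for 92.3% (without An. coluzzii SW replicate 1) to 98.7% (means of replicates) of the calls over all alternatives, and the opposite share was 28.8% (means of replicates) to 40% (without An. coluzzii FW replicate 4).

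For SW against FW in An. merus at 18 h, 5224 to 6036 genes were called without 1 library, and 30.5% of calls were positive after that scaling, against 49.5%. In An. coluzzii at 18 h the 6 calls became 0 with a pseudocount of 4 (1746 genes at an unadjusted p below 0.05), 0 with a filter at 5 CPM (1481) and 0 without both FW replicates 1 and 2 (498), which was added after seeing the data. They became 2 with thinned reads, 31 with array weights, 239 by DESeq2 and 867 with all 32 libraries. Without 1 library they were 0 (FW replicates 1, 2 and 3, SW replicates 2, 3 and 4) to 41 (SW replicate 1), with 3 without FW replicate 4. The interaction at 66 h was called for 2958 to 3428 genes without 1 library and for 2156 on means of replicates, with 21.6% positive after the common scaling, against 46.1%. The difference between ages was called for 74 genes after quantile normalisation, 358 with array weights, 219 by DESeq2, 44 with thinned reads and 4 on means of replicates, and for 63 to 141 without 1 library, and its alternatives were added after seeing the data. The causes were not tested.

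Of the values of the 16 named genes under the alternatives, 451 kept direction and call, 11 kept direction without the call and none changed sign. The 451 include the fits that left out each library in turn. The naming rule had asked for a call in all of those fits, so they could not have lost it and give no further support. Of the 11, 6 were on means of replicates (AGAP013737, AGAP007732, AGAP007830, AGAP010830, AGAP013031 and AGAP010701, with adjusted p of 0.0582 to 0.221). A filter at 5 CPM left no value for AGAP013737 and AGAP013031. Thinning to 3769859 reads lowered the number of calls at 18 h to 1403. Replicate numbers follow the order of the samples, not the labels, and paired no libraries between groups, although the means of replicates average within each group by these numbers.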
